A study of Mus musculus with 106 samples.

Results

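The mouse fatty acid elongases and front-end fatty acid desaturases were examined as a family of 10 genes, Elovl1 to Elovl7 and Fads1 to Fads3, chosen by gene symbol. All 10 were found in each of the 4 gene count tables, which list between 21647 and 23420 genes. RNA had been sequenced from 11 tissues of male wild type mice in 106 libraries. For the cold experiment, mice labelled C57BL/6 (C57BL/6J for quadriceps) were acclimatised at 18 °C and then at 14 °C, for 5 days at either step, and spent 2 weeks at 10 °C, or were kept at 22 °C, and the labels give an age of 11 weeks (12 weeks for quadriceps). For the warm experiment, mice labelled C57BL/6J from another supplier spent 4 weeks at 34 °C or at 22 °C and were 12 weeks old. The study's methods give C57BL/6J for both experiments. No transgene or drug was used. Each group held 3 libraries, most of them pools of 2 mice, except for bone marrow (6 single mice per group) and spinal cord (5 single mice per group). The 10 °C comparison covers interscapular brown adipose tissue (iBAT), inguinal subcutaneous adipose tissue (ingSAT), perigonadal visceral adipose tissue (pgVAT), quadriceps, liver, ileum, brain, hypothalamus, spinal cord, spleen and bone marrow. The 34 °C comparison covers iBAT, ileum, liver, quadriceps and brain, and ingSAT and pgVAT at 34 °C were not analysed here.

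Long fatty acids are built in the endoplasmic reticulum by a cycle that adds a pair of carbons per turn. An Elovl enzyme performs the first, chain-selecting condensation, and a ketoreductase, a dehydratase and an enoyl reductase complete the turn. The desaturases encoded by Fads1 and Fads2 insert double bonds near the carboxyl end and alternate with elongation by Elovl5 and Elovl2 to make arachidonic and docosahexaenoic acid from dietary precursors. Elovl6 lengthens palmitate, the product of lipogenesis, while Elovl1, Elovl3, Elovl4 and Elovl7 lengthen already long chains that enter sphingolipids, barrier lipids and triglycerides. Fads3 is the least characterised of the desaturases and has been linked to sphingoid bases. Brown adipose tissue is known for strong Elovl3 expression under cold and liver for high Fads1, Fads2 and Elovl2 expression.

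The 3 desaturase genes lie side by side on mouse chromosome 19 in the mm10 build. Fads3 (ENSMUSG00000024664) occupies chr19:10041569-10060110 on the plus strand, Fads2 (ENSMUSG00000024665) chr19:10062765-10101746 on the minus strand and Fads1 (ENSMUSG00000010663) chr19:10182888-10196877 on the plus strand. Elovl5 (ENSMUSG00000032349) lies at chr9:77917364-77984519, Elovl6 (ENSMUSG00000041220) at chr3:129532355-129638495 and Elovl3 (ENSMUSG00000038754) at chr19:46131897-46135694. Elovl1 overlaps Cdc20, Elovl3 overlaps Pitx3, and Elovl6 overlaps the antisense gene Gm35986 and the predicted gene Gm43072. The counting options do not state strand, so reads of these overlapping genes may not be fully separated. RefSeq promoter windows (GRCm38.p6, 300 bases) were matched for 8 of the 10 members, not for Fads1 or Elovl3. The 250 bases before the start are shown for Elovl5 and Fads3, an elongase and a desaturase that moved in opposite directions in white adipose tissue. Capitals mark an E-box (CACGTG) or a CCAAT box read on either strand (CCAAT or ATTGG).
Elovl5, chr9:77917115-77917364, plus strand: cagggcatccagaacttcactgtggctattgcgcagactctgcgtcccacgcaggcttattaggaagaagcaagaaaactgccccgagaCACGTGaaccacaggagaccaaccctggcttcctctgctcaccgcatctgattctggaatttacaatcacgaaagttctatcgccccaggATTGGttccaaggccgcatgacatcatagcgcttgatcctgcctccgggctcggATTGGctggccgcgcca
Fads3, chr19:10041298-10041547, plus strand: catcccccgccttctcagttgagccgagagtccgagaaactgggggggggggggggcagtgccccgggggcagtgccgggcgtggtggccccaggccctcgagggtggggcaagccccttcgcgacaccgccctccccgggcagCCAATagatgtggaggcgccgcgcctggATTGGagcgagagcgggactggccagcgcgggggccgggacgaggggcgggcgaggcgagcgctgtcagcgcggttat
In Elovl5 the E-box starts at -161 and the CCAAT letters at -71 and -17, and in Fads3 the CCAAT letters start at -106 and -78, counted from the transcription start. Both motifs are common: CACGTG was in 7.15% and CCAAT in 37.4% of all 32851 windows of that length. The letters of a sterol response element (TCACNCCAC, in 1.24% of windows) were in no member window, which is a statement about these letters only.

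The cold libraries held 4262403 to 58290770 gene counts (median 17676815) and the warm libraries 29545458 to 62880248 (median 41889787), and no pair of libraries was identical. Levels are given as CPM, a gene's reads relative to the total of its library, after TMM scaling within each comparison, and genes were tested where the average log2 CPM was above 0. A gene was called where edgeR's quasi-likelihood test gave an unadjusted p of at most 0.05 and the fold change was above 1.5, the limits used by the study, and the Benjamini-Hochberg adjusted p over all tested genes is given beside it. Of the 160 combinations of member and comparison, 126 were tested and 23 were called, 15 higher and 8 lower than at 22 °C. Where the libraries of 2 groups are said not to overlap, the share of all genes without overlap was not counted. Such statements are descriptions only, since groups of 3 libraries separate easily. Marker lists were summed to check the labels. Each tissue expressed its own list, from 1938 to 2057 CPM of neuronal markers in hypothalamus to at least 131300 CPM of muscle markers in quadriceps. The brown adipocyte list was at 5300 CPM or more in every iBAT library and at most 2704 CPM in any other tissue. The lists did not single out every tissue: neuronal markers reached 6313 CPM in brain, and the adipocyte list overlapped between ingSAT (29320 to 38230 CPM) and pgVAT (14250 to 45650 CPM).

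**Figure D1:**
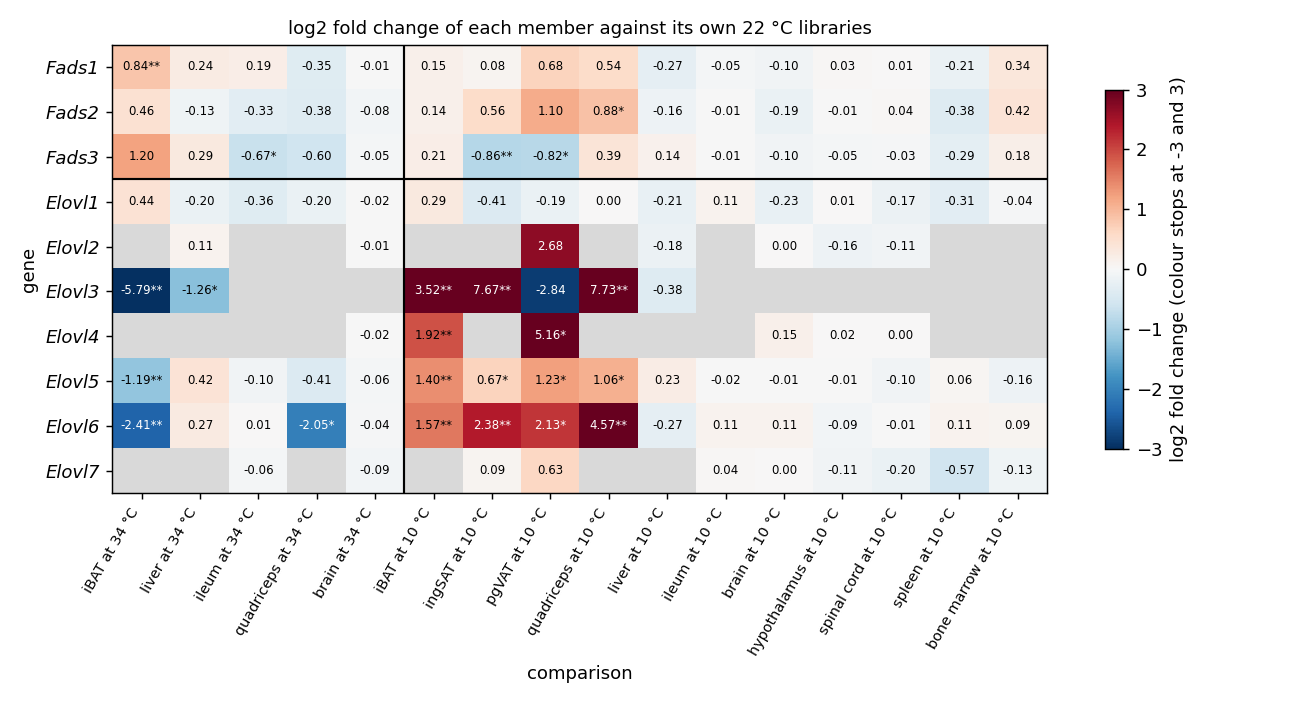
Log2 fold changes against the 22 °C controls of the same experiment for the 10 members (rows) in the 16 comparisons (columns), coloured from lower to higher. One asterisk marks an unadjusted p of at most 0.05 with a fold above 1.5, 2 asterisks mark an adjusted p under 0.05 as well, and grey cells were not tested. The called cells lie in the adipose depots, quadriceps, ileum and liver.

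Among the desaturases at 22 °C, Fads1 and Fads2 shared their highest 4 tissues and their lowest 2, and Fads3 was highest in other tissues. Spinal cord and bone marrow libraries were made with another kit than the rest, so their place in these orders is a description only. Fads1 was highest in liver (469 ± 65.5 CPM, SD, n = 3), followed without overlap by spinal cord (343 ± 19.4 CPM, n = 5), hypothalamus (275 ± 8.42 CPM) and brain (242 ± 3.32 CPM, n = 2). It was at 21.6 ± 2.52 CPM in iBAT and 12.5 ± 4.48 CPM in quadriceps, the lowest tissue. Fads2 was also highest in liver (295 ± 52.9 CPM), and its next tissues, hypothalamus (144 ± 3.23 CPM), brain and spinal cord, followed, each overlapping its neighbour in that order, while hypothalamus and spinal cord did not overlap. Quadriceps was again lowest for Fads2, at 2.48 ± 0.132 CPM. Fads3 had its highest levels in pgVAT (337 ± 54.5 CPM) and ingSAT (227 ± 36.1 CPM), which did not overlap. In the 8 tissues from hypothalamus (39.9 ± 2.59 CPM) down to bone marrow (20.6 ± 2.29 CPM), Fads3 levels were close, and each tissue below hypothalamus overlapped the next. Per kilobase of exon, the scale on which genes can be compared, pgVAT held 88.7 CPM of Fads3, 31.3 CPM of Fads1 and 16.2 CPM of Fads2. In liver the same scale gave 97.5 CPM for Fads1, 89.4 CPM for Fads2 and 7.18 CPM for Fads3.

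The elongases differed in their leading tissue at 22 °C, which was liver for Elovl2, Elovl3 and Elovl5, ileum for Elovl1 and Elovl7, spinal cord for Elovl4 and iBAT for Elovl6. Elovl2, which extends polyunsaturated chains, reached 524 ± 64.9 CPM in liver and 30.6 ± 4.3 CPM in spinal cord, and it was at 0 in all 3 ingSAT and all 3 quadriceps libraries. Elovl3 reached 992 ± 88.4 CPM in liver and 66.3 ± 16.1 CPM in iBAT. Elovl4, the maker of the longest chains in retina and brain, averaged above 2 CPM only in the nervous system at 22 °C, with 69.9 ± 3.2 CPM in spinal cord, 62.6 ± 6.56 CPM in brain and 47.6 ± 0.739 CPM in hypothalamus. Elovl6 was highest in iBAT (1058 ± 299 CPM) and lowest in quadriceps (2.38 ± 0.394 CPM). Elovl1 and Elovl7 led in ileum, at 117 ± 3.8 CPM and 133 ± 5.29 CPM, while Elovl5 was broadly expressed, from 357 ± 38.1 CPM in liver to 10.6 ± 2.02 CPM in quadriceps. Levels of the same tissue were not alike in the warm experiment, where mice, library kit and sequencing site differed for most tissues. Its 22 °C livers held 138 ± 68.3 CPM of Elovl3, and Fads3 was at 27.2 CPM in cold-experiment livers and 1.96 CPM in warm-experiment livers. Each exposure is therefore compared only with its own controls.

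**Figure D2:**
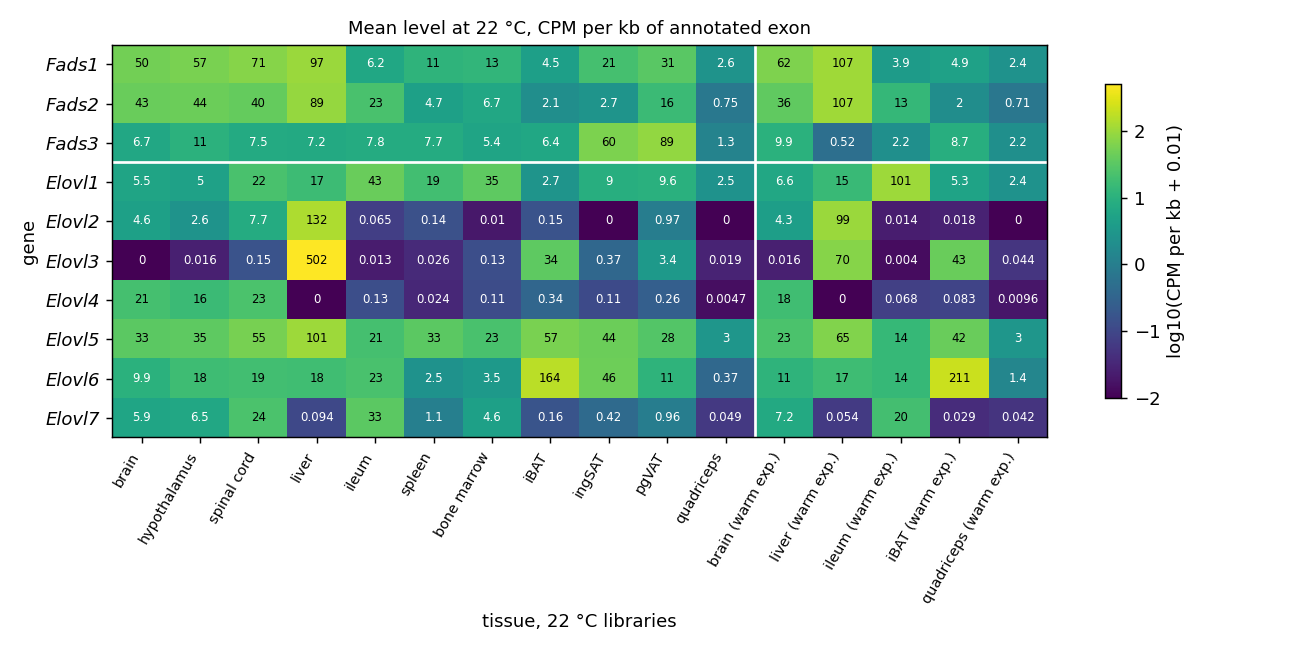
Heat map of the mean level of each member (rows) over the 22 °C libraries of a tissue (columns), the 11 tissues of the cold experiment on the left of the white line and the 5 of the warm experiment on the right. Each cell prints the mean in CPM per kilobase of annotated exon, and the colour is its log10 after adding 0.01. In the cold experiment Fads1 and Fads2 peak in liver, Fads3 in pgVAT and ingSAT, Elovl6 in iBAT, and Elovl4 in spinal cord and brain.

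At 34 °C the desaturases rose past the threshold in iBAT for Fads1 and fell in ileum for Fads3. In iBAT, 1 member was called higher and 3 lower of 7 tested, where 11.9% of all tested genes were called higher and 7.56% lower. Fads1, which makes the last double bond of arachidonic acid, was at 20.1, 27.6 and 22.4 CPM in the 22 °C libraries and at 41.4, 55.3 and 28.97 CPM at 34 °C. All 3 warm libraries lay above all 3 controls, with a log2 fold change of 0.84 (SE 0.23, edgeR adjusted p = 0.033). The call was lost without the second 34 °C library (log2 fold change 0.56). In bulk tissue, fewer cells of a type and less RNA per cell cannot be told apart. Fads2, which opens the pathway, was at 6.69, 7.79 and 5.57 CPM at 22 °C and at 9.01, 11.5 and 7.07 CPM at 34 °C, so the groups overlapped (log2 fold change 0.46, SE 0.22, edgeR adjusted p = 0.151). Fads3 was at 17.7, 56.3 and 24.9 CPM at 22 °C and at 34.0, 142 and 51.2 CPM at 34 °C. The second library was highest in both groups, and the groups overlapped (log2 fold change 1.199, SE 0.598, edgeR adjusted p = 0.164). Without both libraries numbered 2, a choice made after seeing the values, Fads3 was higher by 0.99 on the log2 scale (edgeR adjusted p = 0.0166). The edgeR exact test and scaling by library size only also called it higher (log2 fold changes 1.2 and 1.46), and leaving out single libraries gave values from 0.34, without 34 °C library 2, to 1.83, without control library 2.

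The cell markers of iBAT moved with temperature as well. The summed brown adipocyte list (6 genes, 3 of them lower at an adjusted p under 0.05) was at 10200 to 13940 CPM at 22 °C and at 5300 to 6663 CPM at 34 °C, and Ucp1, which uncouples respiration, was at 5458 to 8291 CPM and at 1227 to 1683 CPM. The hormone gene Lep was at 9.39 to 27.3 CPM at 22 °C and 150 to 284 CPM at 34 °C. The macrophage list (2 of 5 genes higher at an adjusted p under 0.05, where 12.7% of all tested genes were higher and 15.9% lower) was at 94.0 to 160 CPM and 201 to 345 CPM, and the endothelial list (2 of 4 higher) at 573 to 739 CPM and 753 to 1021 CPM. Muscle markers varied by library, with 3.22, 4763 and 8.87 CPM at 22 °C and 3824, 1014 and 1159 CPM at 34 °C. The part of these cell types in the Fads1, Fads3 and elongase values was not tested.

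In ileum at 34 °C, 1 of 7 tested members was called lower (1.43% of all tested genes) and 0 higher (1.48%). Fads3 was at 11.2, 7.47 and 6.76 CPM at 22 °C and at 4.27, 5.73 and 5.95 CPM at 34 °C, with every warm library below every control (log2 fold change -0.67, SE 0.24, edgeR adjusted p = 0.602). The call was lost without the first control (log2 fold change -0.42) or the first 34 °C library (-0.52). Fads2 was at 40.0, 48.8 and 44.1 CPM at 22 °C and at 39.4, 32.2 and 34.5 CPM at 34 °C, also without overlap but by less than 1.5-fold (log2 fold change -0.33, SE 0.11, adjusted p = 0.602). Fads1 showed no such separation, with 15.9 to 20 CPM and 18.2 to 26.5 CPM. The lymphocyte list was at 219, 55.7 and 321 CPM at 22 °C and at 138, 11.7 and 11.3 CPM at 34 °C, and its part in these values was not tested.

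In liver, the tissue with the highest Fads1 and Fads2 levels, no desaturase was called at 34 °C. Fads1 was at 539, 563 and 445 CPM at 22 °C and at 529, 639 and 657 CPM at 34 °C (log2 fold change 0.24, SE 0.12, edgeR adjusted p = 0.512). Fads2 was at 410, 334 and 314 CPM and at 277, 318 and 371 CPM, and Fads3 stayed at or below 2.7 CPM in all 6 libraries. Both comparisons left the groups overlapping. In quadriceps the 3 desaturases were each lower on average without a call. Fads3 was at 9.88, 8.94 and 5.90 CPM at 22 °C and at 4.15, 4.35 and 7.88 CPM at 34 °C (log2 fold change -0.60, SE 0.29, edgeR adjusted p = 1). In brain the desaturases were nearly level, with log2 differences of -0.01 (SE 0.06) for Fads1, -0.08 (SE 0.09) for Fads2 and -0.05 (SE 0.06) for Fads3.

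**Figure D3:**
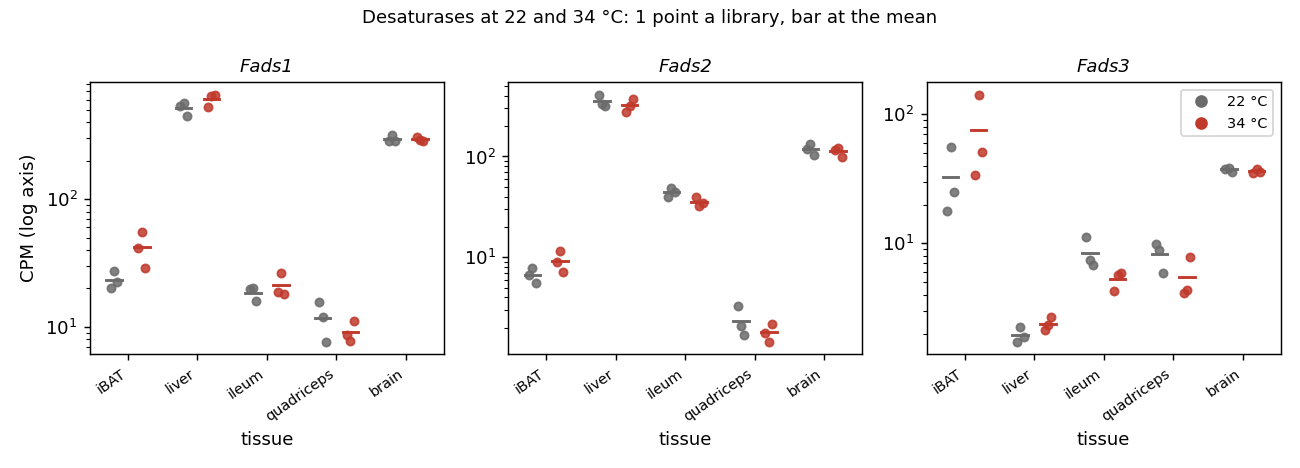
Levels of Fads1, Fads2 and Fads3 in CPM (log scale) in each library of the warm experiment, 22 °C beside 34 °C, in 5 tissues, 1 point a library with a bar at the group mean. In iBAT all 3 warm libraries of Fads1 lie above the controls, and in ileum all 3 warm libraries of Fads3 lie below them.

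Among the elongases at 34 °C, 3 were called lower in iBAT and 1 each in liver and quadriceps. Elovl3, the elongase typical of cold-activated brown fat, was at 103, 96.5 and 54.6 CPM in iBAT at 22 °C and at 0.444, 3.38 and 0.672 CPM at 34 °C. Elovl6 was at 1056, 1805 and 1211 CPM at 22 °C and at 188, 298 and 282 CPM at 34 °C. Elovl5, which serves polyunsaturated chains, was at 143, 139 and 160 CPM at 22 °C and at 63.2, 70.0 and 60.1 CPM at 34 °C. In all 3 genes every warm library lay below every control, a separation whose share over all genes was not counted. The log2 fold changes were -5.79 (SE 0.71) for Elovl3, -2.41 (SE 0.26) for Elovl6 and -1.19 (SE 0.10) for Elovl5, with edgeR adjusted p-values of 0.00246, 0.00161 and 0.000958. At an adjusted p under 0.05, 12.7% of all tested genes were higher and 15.9% lower. Elovl1 was at 12.6 to 16.1 CPM and 16.7 to 21.4 CPM (log2 fold change 0.44, SE 0.14, adjusted p = 0.053), below 1.5-fold. Elovl2, Elovl4 and Elovl7 were under 0.5 CPM in every one of these libraries and were not tested. In iBAT the polyunsaturated-chain elongase Elovl5 was thus called lower and Fads1, which acts in the same pathway, higher. The Fads1 call was lost on leaving out 1 library, and the difference between these genes was not tested.

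In liver at 34 °C, Elovl3 alone of 8 tested members was called lower (1.65% of all tested genes, and 1.74% called higher). It was at 71.2, 135 and 208 CPM at 22 °C and at 69.8, 74.0 and 29.1 CPM at 34 °C, so the groups overlapped (log2 fold change -1.26, SE 0.42, edgeR adjusted p = 0.296). The call was lost without control library 3 (log2 fold change -0.84). Elovl2 and Elovl5, high in liver, were at 362 to 432 CPM against 402 to 453 CPM and at 212 to 250 CPM against 204 to 435 CPM, neither called. The stearoyl-CoA desaturase Scd1, which makes oleate, was at 5426 to 5978 CPM in these livers at 22 °C and 7501 to 16990 CPM at 34 °C. Its adjusted p by edgeR's quasi-likelihood test was not under 0.05. In quadriceps, Elovl6 was the 1 member called lower of 6 tested (0.911% of all tested genes, and 0.315% called higher). It was at 10.2, 9.58 and 7.33 CPM at 22 °C and at 1.08, 0.938 and 4.54 CPM at 34 °C (log2 fold change -2.05, SE 0.53, edgeR adjusted p = 1). The adipocyte list was at 347 to 793 CPM in the controls and 232 to 490 CPM at 34 °C, and 34 °C library 3 had the highest Elovl6 and the highest Adipoq of the 3, while its part in the value was not tested. Cidea was at 15.4, 1.59 and 4.47 CPM in the controls and at 0.864 to 1.17 CPM at 34 °C. The Elovl6 call was lost against all 6 quadriceps controls (log2 fold change -1.40). In brain 0 of 9 members were called by edgeR's quasi-likelihood test (0.0429% of all tested genes called higher and 0.15% lower). The edgeR exact test and DESeq2 also called 0. None had an unadjusted p under 0.05 in the quasi-likelihood test, which 366 of 13979 tested genes reached.

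The effect of 34 °C was compared between tissues with a tissue by temperature interaction over the 5 tissues, in which 12.8% of all tested genes had an adjusted p under 0.05. The interaction passed for Elovl3, Elovl5 and Elovl6, with edgeR adjusted p-values of 0.00182, 0.00163 and 0.000765. It did not pass for Fads1 (0.076), Fads2 (0.178) or Fads3 (0.0987), but the outcome for the desaturases depends on the scaling. With scaling by library size only, 7 members passed in place of 3, the added ones being Elovl1 (adjusted p = 0.00987), Fads1 (0.0228), Fads2 (0.0412) and Fads3 (0.0352).

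At 10 °C, Fads3 was the desaturase that changed in white adipose tissue, where it is most abundant. In ingSAT, 3 members were called higher (7.11% of all tested genes) and Fads3 was called lower (9.27%) among 8 tested. It was at 189, 261 and 232 CPM at 22 °C and at 153, 98.2 and 125 CPM at 10 °C. Every cold library lay below every control (log2 fold change -0.86, SE 0.20, edgeR adjusted p = 0.048). In pgVAT, Fads3 was at 286, 330 and 394 CPM at 22 °C and at 179, 227 and 165 CPM at 10 °C, again without overlap (log2 fold change -0.82, SE 0.28, edgeR adjusted p = 0.586). That call was lost without cold library 1 or 3 or control library 2 or 3 (-0.69 to -0.85). Without both of these cold libraries, which leaves only cold library 2, the value was -0.51. Cold libraries 1 and 3 held 27340 and 26920 CPM of epididymis markers, and their adipocyte list was at 18930 and 14250 CPM, against 45650 CPM in cold library 2 and 25940 to 43830 CPM in the controls. The part of these cells in the pgVAT value was not tested. In iBAT it was at 18.9 to 28.1 CPM and 23.9 to 30.3 CPM (log2 fold change 0.21, SE 0.17). The summed adipocyte list was at 32000 to 38230 CPM and 29320 to 35970 CPM in ingSAT, and macrophage markers were at 853 to 1535 CPM and 713 to 809 CPM, whose part in the Fads3 value was not tested.

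Fads1 and Fads2 were not called at 10 °C in any adipose depot. In ingSAT, Fads1 was at 85.6 to 113 CPM and 81.4 to 151 CPM, and in iBAT at 19.6 to 24.4 CPM and 22.1 to 27 CPM. Both pairs of groups overlapped. Fads2 in ingSAT was at 5.35 to 11.8 CPM and 9.7 to 17.95 CPM (log2 fold change 0.56, SE 0.36, edgeR adjusted p = 0.339). In pgVAT the overlapping groups differed by more than 1.5-fold on average, with log2 fold changes of 0.68 (SE 0.48, edgeR adjusted p = 0.685) for Fads1 and 1.11 (SE 0.995, adjusted p = 0.757) for Fads2. In bone marrow both were higher by less than 1.5-fold, with 7.32% of all tested genes higher and 11.8% lower at an adjusted p under 0.05. Fads1 had a lowest, median and highest level of 55.7, 61.3 and 65.7 CPM in 6 mice at 22 °C and of 72.3, 73.7 and 89.3 CPM in 6 mice at 10 °C. Fads2 had 18.5, 22.6 and 25 CPM at 22 °C and 26.2, 29.2 and 33 CPM at 10 °C. All 6 cold mice lay above all 6 controls for both genes. The log2 fold changes were 0.34 (SE 0.06, edgeR adjusted p = 0.00338) for Fads1 and 0.42 (SE 0.07, edgeR adjusted p = 0.00356) for Fads2, and Fads3 was at 0.18 (SE 0.07, adjusted p = 0.0832). The marrow's cell markers differed too, with erythroid markers at 19250 to 27380 CPM in controls and 26040 to 36110 CPM in cold mice and neutrophil precursor markers at 18220 to 25310 CPM and 16810 to 17830 CPM. Their part in the desaturase values was not tested.

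In quadriceps at 10 °C, Fads2 was called higher at low levels. It was at 2.63, 2.43 and 2.39 CPM at 22 °C and at 6.01, 4.76 and 2.92 CPM at 10 °C, without overlap (log2 fold change 0.88, SE 0.27, edgeR adjusted p = 0.393), and without the first cold library the call was lost (log2 fold change 0.63). Fads1 was at 9.45 to 17.7 CPM and 13.1 to 24.1 CPM, overlapping. In liver, hypothalamus, spinal cord and ileum no desaturase had an unadjusted p under 0.05. In brain, Fads2 was at 132 and 149 CPM at 22 °C and at 123, 129 and 118 CPM at 10 °C, without overlap and by less than 1.5-fold (log2 fold change -0.19, SE 0.08, edgeR adjusted p = 0.492). Brain Fads1 and Fads3 did not overlap either, with a log2 difference of -0.10 for both (SE 0.07 and 0.09, adjusted p = 0.721 and 0.781). With 2 controls and 3 cold libraries a lack of overlap is easily reached, and its share over all genes was not counted. In spleen, Fads3 was at 26.7 to 33.7 CPM at 22 °C and 22.3 to 26.1 CPM at 10 °C, also without overlap (log2 fold change -0.29, SE 0.12, edgeR adjusted p = 0.477). Liver Fads1 was at 396 to 522 CPM at 22 °C and 361 to 443 CPM at 10 °C (log2 fold change -0.27, SE 0.12), and hypothalamic Fads1 at 269 to 284 CPM and 279 to 282 CPM (log2 fold change 0.03, SE 0.04).

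Elovl3, Elovl5 and Elovl6 rose at 10 °C in iBAT, ingSAT and quadriceps, and Elovl4 rose in iBAT. Elovl1 was called in none of the 3, and in iBAT the untested Elovl2 and Elovl7 were below 1 CPM, at 0.462 to 0.668 CPM and 0.385 to 0.949 CPM at 22 °C and at 0.099 to 0.205 CPM and 0.128 to 0.342 CPM at 10 °C. In iBAT 4 of 8 tested members were called higher (6.25% of all tested genes) and 0 lower (6.96%). Elovl3 was at 73.4, 47.9 and 77.6 CPM at 22 °C and at 785, 767 and 724 CPM at 10 °C. Elovl6 was at 1261, 1198 and 715 CPM and at 3195, 3027 and 3234 CPM, and Elovl5 at 238, 195 and 169 CPM and at 472, 627 and 490 CPM. Elovl4, otherwise an elongase of the nervous system, was at 1.15, 0.837 and 1.13 CPM at 22 °C and at 4.75, 2.67 and 4.34 CPM at 10 °C. None of these groups overlapped, and the share of all genes without overlap was not counted. The log2 fold changes were 3.52 (SE 0.20) for Elovl3, 1.92 (SE 0.30) for Elovl4, 1.58 (SE 0.23) for Elovl6 and 1.40 (SE 0.17) for Elovl5, with edgeR adjusted p-values from 0.000148 to 0.00545, where 6.53% of all tested genes were higher and 4.85% lower at an adjusted p under 0.05. Beside the values of the warm experiment, Elovl3, Elovl5 and Elovl6 were thus higher at 10 °C and lower at 34 °C, each against its own controls, while Fads1 was called at 34 °C and not at 10 °C, a difference between the experiments that was not tested. The brown adipocyte list was at 7787 to 12990 CPM at 22 °C and 12860 to 16770 CPM at 10 °C, and muscle markers at 6485 to 8957 CPM and 2508 to 5196 CPM, whose part was not tested.

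In ingSAT, Elovl3 was at 1.34, 0.711 and 0.132 CPM at 22 °C (at most 14 counts) and at 120, 169 and 128 CPM at 10 °C (log2 fold change 7.67, SE 0.49, edgeR adjusted p = 0.00214). It passed the level filter only through its cold libraries, so it could not have been called lower. Elovl6 was at 402, 374 and 104 CPM and at 1850, 1460 and 1254 CPM (log2 fold change 2.38, SE 0.50, edgeR adjusted p = 0.037). Elovl5 was at 177, 180 and 104 CPM and at 270, 257 and 204 CPM (log2 fold change 0.67, SE 0.24, edgeR adjusted p = 0.124), and its call was lost without cold library 1 or 2 or control library 3 (0.48 to 0.66). All cold libraries lay above the controls for these 3 genes, a separation whose share over all genes was not counted. At an adjusted p under 0.05, 4.56% of all tested genes were higher and 3.0% lower. All 6 brown adipocyte markers were higher in the cold ingSAT at an adjusted p under 0.05, and their sum was at 148 to 201 CPM at 22 °C and 2138 to 2704 CPM at 10 °C. Whether the elongase values follow those cells was not tested.

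In quadriceps 4 members were called higher of 7 tested (3.03% of all tested genes) and 0 lower (0.77%). Among them, Elovl3 passed the level filter only through its 10 °C libraries, so it could not have been called lower. Elovl3 had 4, 0 and 1 counts in the 22 °C libraries and was at 13.8, 6.34 and 3.299 CPM at 10 °C, so its log2 fold change of 7.73 (SE 0.87, edgeR adjusted p = 0.0474) rests on very few control counts. Elovl6 was at 2.28, 2.81 and 2.05 CPM and at 89.7, 58.1 and 22.2 CPM (log2 fold change 4.57, SE 0.50, edgeR adjusted p = 0.0474). Elovl5 was at 12.5, 10.7 and 8.46 CPM and at 25.3, 25.01 and 15.7 CPM (log2 fold change 1.06, SE 0.22, edgeR adjusted p = 0.202). At an adjusted p under 0.05 only 0.0592% of all tested genes were higher in quadriceps and 0 were lower. The brown fat genes Ucp1 and Cidea were higher in the same libraries and in the same order as Elovl3 and Elovl6. Ucp1 was at 0.0475 to 0.398 CPM at 22 °C and at 120, 93.8 and 27.7 CPM at 10 °C, and Cidea at 1.64 to 1.95 CPM and at 47, 35.5 and 12.1 CPM. The adipocyte list was at 281 to 481 CPM and 429 to 1178 CPM, with 0 of its 6 genes at an adjusted p under 0.05 by edgeR's quasi-likelihood test and 5 of 6 called. Their part in the elongase values was not tested.

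**Figure D4:**
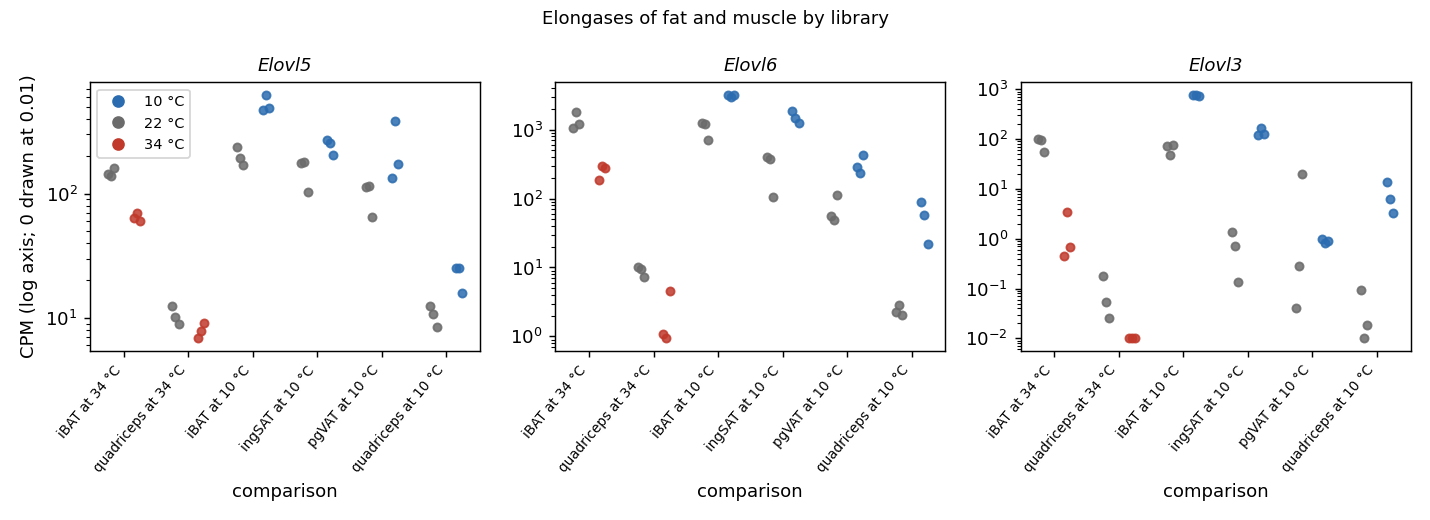
Levels of Elovl3, Elovl5 and Elovl6 in CPM (log scale) in each library of the adipose depots and quadriceps, 22 °C beside 10 °C or 34 °C, 1 point a library, with a level of 0 drawn at 0.01 CPM. All 3 genes lie above the controls at 10 °C in iBAT, ingSAT and quadriceps and below them at 34 °C in iBAT.

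In pgVAT at 10 °C, 3 elongases were called higher (5.01% of all tested genes) and 1 desaturase lower (3.17%) of 10 tested. By the quasi-likelihood test none had an adjusted p under 0.05, and neither had any other tested gene in pgVAT. At that limit the edgeR exact test passed 1 member and DESeq2 passed 2, and the share of all genes passing those tests was not counted. Elovl6 was at 55.7, 48.9 and 113 CPM at 22 °C and at 284, 237 and 432 CPM at 10 °C, without overlap (log2 fold change 2.13, SE 0.43, edgeR adjusted p = 0.586). Elovl5 was at 113, 114 and 65.2 CPM and at 132, 382 and 173 CPM, also without overlap (log2 fold change 1.23, SE 0.46, edgeR adjusted p = 0.586), and its call was lost without cold library 2 (0.61) or any 1 of the 3 controls (1.03 to 1.36). Elovl4 was at 0.291, 0.416 and 1.63 CPM at 22 °C and at 29.5, 0.209 and 41.4 CPM at 10 °C, so the high values are those of cold libraries 1 and 3. It passed the level filter only through those libraries, so it could not have been called lower. Its log2 fold change was 5.16 (SE 1.64, edgeR adjusted p = 0.586), and the call was lost without control library 1 (4.59) or 2 (4.86). The same libraries had Elovl2 at 26.8 and 45.0 CPM, against 0.0698 CPM in the second, and Fads2 at 86.1 and 244 CPM, against 17.6 CPM. These libraries also held epididymis transcripts. A list of 10 epididymis genes summed to 27340 and 26920 CPM in them, to 4.61 CPM in the second cold library and to 8395, 934 and 855 CPM at 22 °C. Adam7, one of its genes, was at 5904 and 9950 CPM in them, and Lcn8, another, at 2137 and 3638 CPM. At 22 °C, Adam7 was at 66.7, 230 and 228 CPM and Lcn8 at 0.249, 8.19 and 85.1 CPM. Control library 1, with the highest sum of the controls, was thus lowest of them for both genes. Its sum came mostly from other genes of the list. The list did not move in 1 direction. Of its 10 genes, all tested, 1 was called higher and 1 lower at 10 °C, with a median log2 fold change of 5.81. Adam7 and Lcn8 therefore do not stand for the whole list, and the part of each gene in the sums was not tested. Without cold libraries 1 and 3, a choice made after seeing the values, the Elovl2 difference turned to -5.50 on the log2 scale from 2.68. That value rests on 1 cold library with 1 count of Elovl2. The 22 °C library 3 stood apart in another way, with Ucp1 at 288 CPM and Elovl3 at 19.9 CPM, against at most 8.59 and 0.972 CPM in the other 5 libraries. Leaving out 22 °C library 2 or 3 lowered the count of members called from 4 to 1 or 2.

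**Figure D5:**
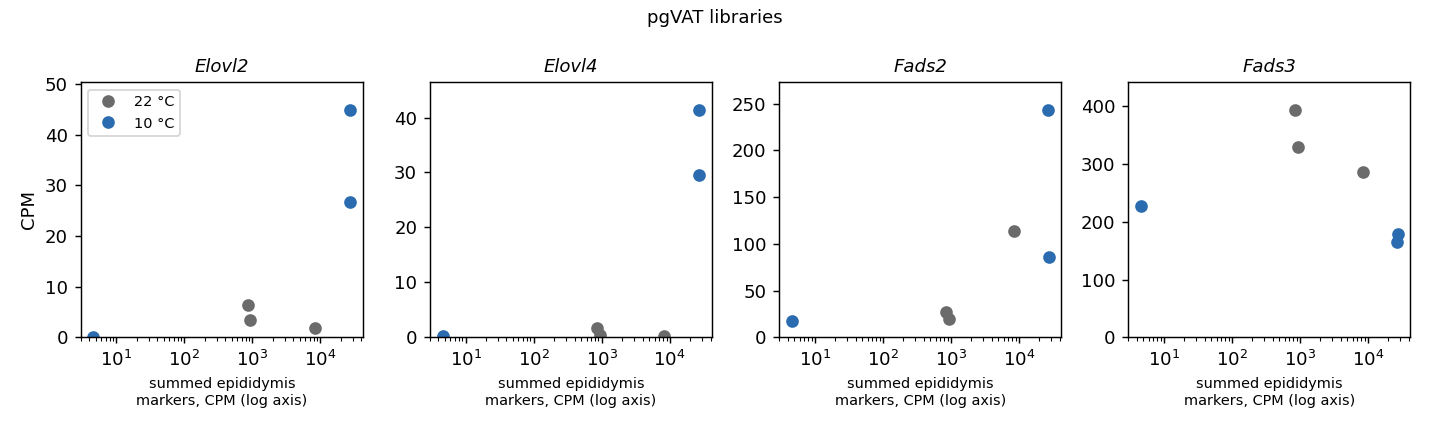
Level of members in each pgVAT library (vertical axis, CPM, linear from 0) against the summed level of the 10 epididymis markers (horizontal axis, CPM, log scale), for Elovl2, Elovl4, Fads2 and Fads3, 1 point a library. The 2 cold libraries with 26920 and 27340 CPM of epididymis markers are the ones with the highest Elovl2 and Elovl4 levels.

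In the other 7 tissues at 10 °C edgeR's quasi-likelihood test called 0 members, and the edgeR exact test and DESeq2 also called 0. The share of all tested genes called higher and lower was 0.765% and 2.44% in liver, 1.46% and 1.26% in ileum, 0.515% and 0.286% in brain, 0.399% and 0.179% in hypothalamus, 0.181% and 0.0904% in spinal cord, 0.638% and 2.08% in spleen and 0.647% and 0.615% in bone marrow. An unadjusted p under 0.05 was reached by 4 members in bone marrow, 2 in brain, 2 in spleen, 1 in liver and 0 elsewhere. Of all tested genes, 4134 of 12525 reached it in bone marrow, 1228 of 13975 in brain, 1438 of 14113 in spleen and 2234 of 12028 in liver. The liver member was Elovl3, at 1008, 897 and 1072 CPM at 22 °C and at 765, 872 and 646 CPM at 10 °C (log2 fold change -0.38, SE 0.12, edgeR adjusted p = 0.157). The interaction of tissue and temperature was fitted over the 8 tissues that share a count table, without quadriceps, spinal cord and bone marrow, and passed for 15.9% of all tested genes. It passed for Elovl3, Elovl4, Elovl5, Elovl6 and Fads3, with edgeR adjusted p-values of 3.01e-05, 0.00701, 0.00821, 5.1e-05 and 0.00441, and not for Fads1 (0.589) or Fads2 (0.725). With a replicate block Fads3 no longer passed (adjusted p = 0.0525), and with all 3 brain controls Elovl2 passed as well (0.0418).

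The enzymes around the elongases were read from lists with the same tests. In iBAT at 34 °C the genes that make and activate long fatty acids were lower together, with 9 of 9 tested at an adjusted p under 0.05 (15.9% of all tested genes lower) and a median log2 fold change of -1.90, where all genes had 0.01. Fasn, the fatty acid synthase, was at 34190 ± 9704 CPM and 5031 ± 3870 CPM (SD, n = 3). Acsl5, which activates fatty acids, was at 659 ± 110 CPM and 130 ± 33.4 CPM. Of the 6 tested partners in the elongation cycle 4 were lower, among them the ketoreductase Hsd17b12 (log2 fold change -1.31, SE 0.12, edgeR adjusted p = 0.001) and the dehydratase Hacd2 (log2 fold change -1.50, SE 0.19, edgeR adjusted p = 0.00254). Cyb5b, a cytochrome b that can pass electrons to desaturases, was also lower (log2 fold change -1.14, SE 0.17). The stearoyl-CoA desaturase Scd4 was lower, at 9.99 ± 1.70 CPM and 2.97 ± 2.31 CPM (log2 fold change -1.75, SE 0.51, edgeR adjusted p = 0.0401). It was the only gene of the list of other desaturases, which includes Scd1, with an adjusted p under 0.05.

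At 10 °C, 7 of 10 fatty acid supply genes were higher in iBAT at an adjusted p under 0.05 (6.53% of all tested genes), led by the malic enzyme gene Me1 (log2 fold change 2.11, SE 0.32) and Acsl5 (log2 fold change 2.02, SE 0.22). Hacd2 and Hsd17b12 were higher by 1.25 and 1.03 on the log2 scale (SE 0.15 and 0.13). Mlxipl, a carbohydrate-sensing activator of lipogenesis, rose by 0.91 (SE 0.20), and Ppara, the fatty acid receptor, fell by 1.24 (SE 0.32). In ingSAT, Mlxipl and Insig1, a brake on sterol-regulated transcription, were higher by 1.45 (SE 0.18) and 1.83 (SE 0.35), and Hsd17b12 by 1.14 (SE 0.24). In bone marrow, where Fads1 and Fads2 were higher, Scd1 (log2 fold change 0.30, SE 0.09, edgeR adjusted p = 0.026), the 1 of 4 tested genes of its list to pass (list median -0.17), Pparg (0.52, SE 0.15, adjusted p = 0.0253) and Insig1 (0.22, SE 0.07, adjusted p = 0.0312) were higher and the peroxisomal carrier gene Scp2 was lower (-0.34, SE 0.06, adjusted p = 0.00405). In quadriceps at 10 °C only Acly, which supplies cytosolic acetyl-CoA, passed in these lists, at 32.6 ± 8.38 CPM and 264 ± 104 CPM (log2 fold change 3.02, SE 0.35, edgeR adjusted p = 0.0474).

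Across 36 libraries of iBAT, ileum, liver, brain and quadriceps that share a count table, log2(CPM + 1) levels of Fads1 and Fads2 had a Pearson r of 0.91. Fads1 and Elovl2 had an r of 0.925, and Fads3 had an r of 0.05 with Fads1 and of -0.09 with Fads2. Of 14886 genes the patterns most like Fads1 were Nrn1 (r = 0.98), A230050P20Rik and Glt1d1 (both r = 0.98), and those most like Fads2 were Clmn and 2810459M11Rik (both r = 0.97). These are descriptions across tissues, in which libraries of a tissue share their source.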

How the data were processed

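Tissue RNA was sequenced as mRNA libraries (NEBNext Ultra for most 10 °C tissues and their controls, TruSeq stranded for bone marrow, spinal cord and the 34 °C experiment), and reads were mapped to mm10 and counted per gene. The authors deposited the data as raw counts per gene and library in 4 tables. Tool names in the submitters' processing notes are STAR 2.5.3a, Picard 1.141 and HTSeq 0.6p1. The kits and sites differ between the experiments, and between some tissues of the cold experiment, so temperatures were tested only within a comparison, and levels across tissues or experiments are descriptions. Of 21647 Ensembl gene identifiers in the largest table, 21583 were named by the gene annotation, and list genes held under older symbols were renamed through RefSeq synonyms. Total counts per library gave the depth stated with the results, and the smallest library limits the precision for genes of a few CPM.

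Counts were analysed with edgeR 4.0.16 (R 4.3.3) for each of the 16 comparisons of tissue and temperature. TMM scaling, a filter on average log2 CPM above 0 and the quasi-likelihood F-test with Benjamini-Hochberg adjustment over all tested genes were used. The study used edgeR's exact test, which was run as an alternative beside DESeq2 1.42.0. The SE of a log2 fold change was its size divided by the square root of F. The tissue by temperature interaction was fitted over the 5 tissues of the warm experiment and over the 8 tissues of the cold experiment that share a count table. The test scripts were checked on simulated data first. Levels per kilobase divide CPM by the union of annotated exons. Quadriceps has 6 control libraries, and the 3 whose column prefix matches the exposed libraries were used. Brain replicate 2 at 22 °C was left out of the 10 °C comparison, because the group means of raw counts in the study's supplementary tables match the mean of the other 2 libraries for 1960 of 1960 compared genes, within 0.01 counts plus 0.01% of the mean. The members, the gene lists and the tests were chosen with earlier results of these data known. Named pathway genes were those with an adjusted p under 0.05 and the largest change, at most 2 per list and comparison, and Scd1 in liver and single marker genes were named after their values were seen. The supplementary means were used only for that check and the same one in quadriceps.

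Alternatives were an adjusted p threshold, scaling by library size only, other filters on low counts, the edgeR exact test, DESeq2, a replicate block, other sets of controls and leaving out each library except those of bone marrow. Libraries are mostly pools of mice, so p-values measure the spread between pools. The study's sources differ on whether 34 °C iBAT libraries are pools or single mice.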

Additional observations from a re-analysis of the deposited data

Results flagged for a closer look

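The spinal cord library 4 at 10 °C was lowest of 5 for several members, by a gap that was a large share of the group's range: 0.755 for Elovl4 (53.3 CPM), 0.748 for Elovl5 (126 CPM), 0.871 for Elovl6 (95.2 CPM), 0.819 for Elovl7 (59.0 CPM) and 0.752 for Fads1 (299 CPM). Its oligodendrocyte list was at 23560 CPM, against 28660 to 29760 CPM in the other 4, and its neuron list at 2669 CPM, against 3314 to 3643 CPM. Among 6 bone marrow libraries the share of the range was 0.653 for the highest Fads1 library at 10 °C (library 1, 89.3 CPM) and 0.659 for the highest Fads3 library at 22 °C (library 3, 25.04 CPM). These are 7 of 32 groups compared, and chance marks about 1 in 20, although members of a library are not independent.

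Effects that differed between tissues by the interaction test of edgeR were, at 34 °C, those of Elovl3 (adjusted p = 0.00182), Elovl5 (0.00163) and Elovl6 (0.000765). At 10 °C they were those of Elovl3 (adjusted p = 3.01e-05), Elovl4 (0.00701), Elovl5 (0.00821), Elovl6 (5.1e-05) and Fads3 (0.00441). Elovl4 in the 10 °C interaction draws in part on pgVAT, whose cold libraries 1 and 3 held epididymis markers.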

How the results depend on the processing

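The number of members called in iBAT at 34 °C was 7 with library size scaling only, against 4, and the interaction at 34 °C passed for 7 members against 3. That scaling moved the median log2 fold change of all genes by 0.286 in iBAT at 34 °C, by -0.167 in iBAT at 10 °C and by 0.235 in quadriceps at 10 °C, and the share of calls that were higher went from 61.1% to 88.3%, from 47.3% to 24.6% and from 79.7% to 95.6%. The same share went from 61.2% to 40.8% in pgVAT, from 23.9% to 12.1% in liver and from 53.6% to 38.7% in ileum at 10 °C, and from 51.2% to 36.6% in liver and from 25.7% to 13.5% in quadriceps at 34 °C. With an adjusted p under 0.05 in the quasi-likelihood test as the only rule, 0 members were called in ileum, liver and quadriceps at 34 °C, against 1 in each, and 0 in pgVAT at 10 °C, against 4. No tested gene at all passed that rule in ileum and quadriceps at 34 °C or in pgVAT, and in liver at 34 °C 0.116% were higher and 0.268% lower. By this test the rule therefore does not set the members apart from other genes there. In pgVAT the edgeR exact test passed 1 member at that limit and DESeq2 passed 2. In quadriceps at 34 °C, keeping all genes with more than 1 count or using DESeq2 gave 2 calls and all 6 controls gave 0, against 1. Keeping those genes gave 7 calls in the other 8 tissues at 10 °C, against 4.

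With any 1 library omitted there were 3 to 6 calls in iBAT, 0 to 2 in ileum, 0 to 2 in liver, 1 to 2 in quadriceps and 0 in brain at 34 °C, and 4 in iBAT, 3 to 4 in ingSAT, 1 to 5 in pgVAT and 3 to 6 in the other 8 tissues at 10 °C. No bone marrow library was left out in turn, so these counts do not test the bone marrow values. The interaction counts were 3 to 4 at 34 °C and 5 to 7 at 10 °C. The ileum count was 0 without control 1 or 34 °C library 1 and 2 without 34 °C library 3, the liver count 0 without control 3 and 2 without 34 °C library 3, and the quadriceps count 2 without library 3 of either group. Without 22 °C library 2 or 3 the pgVAT count was 1 or 2.

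The Elovl2 and Elovl7 differences in pgVAT turned to -5.50 and -0.74 (from 2.68 and 0.63) without cold libraries 1 and 3, an alternative added after seeing the data. These 2 values rest on 1 cold library, with 1 count of Elovl2 and 32 of Elovl7. The Fads3 difference in quadriceps at 10 °C turned to -0.06 (from 0.39) with all 6 controls. Replicate numbers did not pair the samples: correlations of same-numbered libraries ran from -0.69 to 0.43, and at most 2 of 3 libraries in a tissue correlated best with their own number. A replicate block turned the Elovl3 difference in pgVAT to 0.39 from -2.84, gave 4 calls in each adipose depot at 10 °C, as without the block, and 4 interactions at 10 °C against 5, the one lost being Fads3 (adjusted p = 0.0525). Over 36 single-member results and their alternatives, 397 values kept direction and side of the threshold, 30 lost and 25 gained a call, and 4 changed direction. The cause of these changes was not tested. Shallow libraries limit genes near 1 CPM, such as Elovl4 in iBAT.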

Other observations

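In liver at 34 °C, 3 of 6 tested desaturases outside the Fads1 to Fads3 group were called higher and none lower, where 1.74% of all tested genes were called higher and 1.65% lower, with a median log2 fold change of 0.73, where all genes had 0.00. None of these called genes had an adjusted p under 0.05 by edgeR's quasi-likelihood test. They include Scd1, at 5703 ± 276 CPM at 22 °C and 11060 ± 5164 CPM at 34 °C (SD, n = 3), while Fads1 and Fads2 in the same libraries were not called. In bone marrow, the adipocyte list was at 17.7 to 53.6 CPM at 22 °C and 34.9 to 54.2 CPM at 10 °C.

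In iBAT the epididymis list of 10 genes was at 0.418 to 0.67 CPM at 22 °C and at 4.85, 5.26 and 45.5 CPM at 10 °C. Its 4 tested genes passed the level filter only through the cold libraries, so their calls as higher add nothing to these sums. In quadriceps 1 cold library held 168 CPM of the same list, against at most 0.237 CPM in the others.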
